A study of Mus musculus with 6 samples.

Results

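The transcripts described here are those of *Odc1* and 9 further genes of polyamine metabolism, measured by RNA-seq in muscle satellite cells (MuSCs), the stem cells of skeletal muscle, from control mice and from mice in which the mechanosensitive channel gene *Piezo1* was targeted. The 10 genes were chosen by symbol from a count table of 20654 genes, because *Odc1* had been selected on its lower values in the libraries labelled *Piezo1* cKO. The difference in *Odc1* between the groups is therefore given as a description without a test. The other members are *Oaz1*, *Oaz2*, *Azin1*, *Amd1*, *Srm*, *Sms*, *Sat1*, *Smox* and *Paox*. Of the 10 genes, 9 passed the filter on low counts that left 8551 genes of the table to be tested, and *Paox* did not.

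Polyamines are small positively charged molecules that bind nucleic acids and are made in larger amounts by growing cells. Ornithine decarboxylase, the product of *Odc1*, turns ornithine into putrescine, and spermidine synthase (*Srm*) and spermine synthase (*Sms*) add aminopropyl groups that come from S-adenosylmethionine after decarboxylation by AMD1. Antizymes (*Oaz1*, *Oaz2*) bind ornithine decarboxylase and send it to the proteasome without ubiquitin, antizyme inhibitors (*Azin1*, *Azin2*) bind antizyme in its place, and SAT1, SMOX and PAOX acetylate and oxidise spermidine and spermine. In skeletal muscle, ornithine decarboxylase activity is known to be high in proliferating myoblasts.

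There were 3 control and 3 cKO libraries, all from mice on a C57BL/6 background. For the RNA-seq, a figure legend of the paper gives the controls as *Pax7*CreERT2/+, although the sample labels call them wild type. The cKO mice carried floxed *Piezo1* alleles with the same *Pax7*CreERT2/+. If the legend holds, Cre was expressed from the *Pax7* locus in both groups, which the labels do not settle. Recombination depended on tamoxifen and on cells that expressed *Pax7*. The age of the animals was not given in the sources used here. The mice received tamoxifen, and MuSCs were sorted from forelimb muscle as VCAM1+, CD31-, CD45- and Sca1- cells and grown for 3 d on Matrigel in medium with 30% foetal bovine serum and 10 ng/ml basic fibroblast growth factor. The active form of tamoxifen, 4-OH TMX, was present at 1 µM in both groups. RNA was primed with oligo-dT and tagged with unique molecular identifiers (UMIs), so that a count stands for 1 cDNA molecule taken mostly near the 3′ end of a transcript. Control libraries 1 to 3 had totals of 740936, 931168 and 891531 counts, and cKO libraries 1 to 3 had 810096, 726378 and 769295. The labels do not say which mouse each library came from, and p-values measure only the spread between these libraries.

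The targeted gene was read first as a check of the labels. *Piezo1* (ENSMUSG00000014444.17, GRCm38 chr8:122481698-122551329, minus strand) had 11, 5 and 6 counts in controls and 7, 12 and 9 in cKO. The groups overlapped. RT-qPCR of *Piezo1* in the study is not analysed here. Without the filter on low counts its log2 fold change was 0.41 (SE 0.47, edgeR adjusted p = 0.736). Where the floxed exons lie is not stated in the text used here. Counts taken near the 3′ end check a deletion only where they come from the deleted part. Every direction below is therefore one between libraries as they are labelled.

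Of 10 MuSC and myoblast markers, 8 had counts in all 6 libraries, and *Chodl* and *Msc* had 0 to 3 counts and were at 0 in several. *Myod1*, the myogenic determination factor, lay between 1053 and 1530 CPM (counts divided by the TMM-adjusted total of their library, times 1e6), and *Des*, which encodes the intermediate filament desmin, between 417 and 606 CPM. *Pax7* had 5 to 26 counts. Of the defining markers of other cells that the sort should have removed, *Pecam1* of endothelium had 0 to 2 counts in any library and *Pi16* of fibroblasts had 0 in all of them. Other genes listed for such cells were present, but bulk RNA does not show which cells, MuSCs included, these counts came from. *Gsn* had 144 to 253 counts, *Cd34* 23 to 172, *Cspg4*, listed for pericytes, 25 to 54 and *Dcn* 3 to 37. Counts were 2 to 9 for *Ly6a*, 1 to 9 for *Tek*, 5 to 13 for *Cd68* and 0 to 11 for *Lyz2*. A gene at the floor of 3 counts, the upper limit that a count of 0 allows, had between 3.27 and 4.21 CPM. These floors, and the Poisson intervals given below for single libraries, cover counting error only. The 10 members together held from 0.188% to 0.236% of all counts in control libraries and from 0.172% to 0.180% in cKO libraries.

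*Odc1* (ENSMUSG00000011179.8) lies on GRCm38 chr12:17544794-17551505, on the plus strand, with 12 exons. Its promoter is printed because this is the gene that led to the choice of the others. The 171 bases of its RefSeq promoter window that lie before the GENCODE gene start (GRCm38.p6, chr12:17544623-17544793, plus strand) read as follows. GC boxes (GGGCGG, read on either strand) are in capitals.

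*Odc1* promoter: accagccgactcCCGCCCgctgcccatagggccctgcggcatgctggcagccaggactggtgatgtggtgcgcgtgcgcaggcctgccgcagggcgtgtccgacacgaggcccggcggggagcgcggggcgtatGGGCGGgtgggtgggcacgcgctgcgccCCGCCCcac

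This stretch holds 3 GC boxes, the letters bound by SP1-type factors, and 77.2% of its bases are G or C. A GC box occurs in 35.7% of the 32851 mouse promoter windows of 300 bases in the same table. The whole *Odc1* window (chr12:17544623-17544922) runs past the GENCODE gene start and holds 4 GC boxes. The canonical E-box CACGTG, the letters bound by MYC and MAX, occurs in 7.15% of these windows and was not found in the 300 bases of the *Odc1* window. This says only that these letters are not in this window. Of the 10 members, 8 had a window in the table, and only *Sms* had CACGTG, in 1 of its 2 windows.

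*Odc1* had 357, 643 and 364 counts in controls and 247, 209 and 243 in cKO. On the CPM scale these were 501, 701 and 419.5 in controls and 305, 267 and 314 in cKO. Every cKO library lay below every control library, and the 3 cKO libraries lay close together while control 2 stood well above the other controls. The exact Poisson 95% interval of control 3, the lowest control, ran from 378 to 465 CPM, and that of cKO 3, the highest cKO library, from 275 to 356 CPM. Both intervals cover counting error only, and *Odc1* was selected on these values, so they are no test of the difference. Mean CPM was 540.3 ± 145 in controls and 295 ± 24.6 in cKO (SD, n = 3). The fitted log2 fold change was -0.87 (SE 0.15, 95% interval -1.16 to -0.58), which is a level 1.82-fold lower in cKO.

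By the quasi-likelihood F-test of edgeR, with p-values adjusted after Benjamini and Hochberg, 27 of 8551 genes were called lower in cKO at an adjusted p under 0.05 (0.316%) and 40 higher (0.468%). *Odc1* was the first by p among the genes with a lower value and the third of all, which is why it was chosen and is not read further. These counts rested on few libraries. With a library left out, genes called lower numbered 2 without cKO 2, 5 without cKO 3, 47 without control 3 and 73 without cKO 1, and genes called higher ranged from 4 without cKO 2 to 101 without cKO 1, with 24 without cKO 3, 76 without control 1 and 84 without control 3. The log2 fold change of *Odc1* was -0.63 without control 2, the highest library, -0.81 without cKO 2 and -0.72 under cyclic loess scaling. In the last pair of fits it did not reach the threshold that had led to its choice. At the threshold, *Pa2g4* and *Trp53inp2* (adjusted p = 0.0473 in edgeR) were the last genes called and *Fam20c* and *Xirp1* (adjusted p = 0.0561) the first not called.

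**Figure D1:**
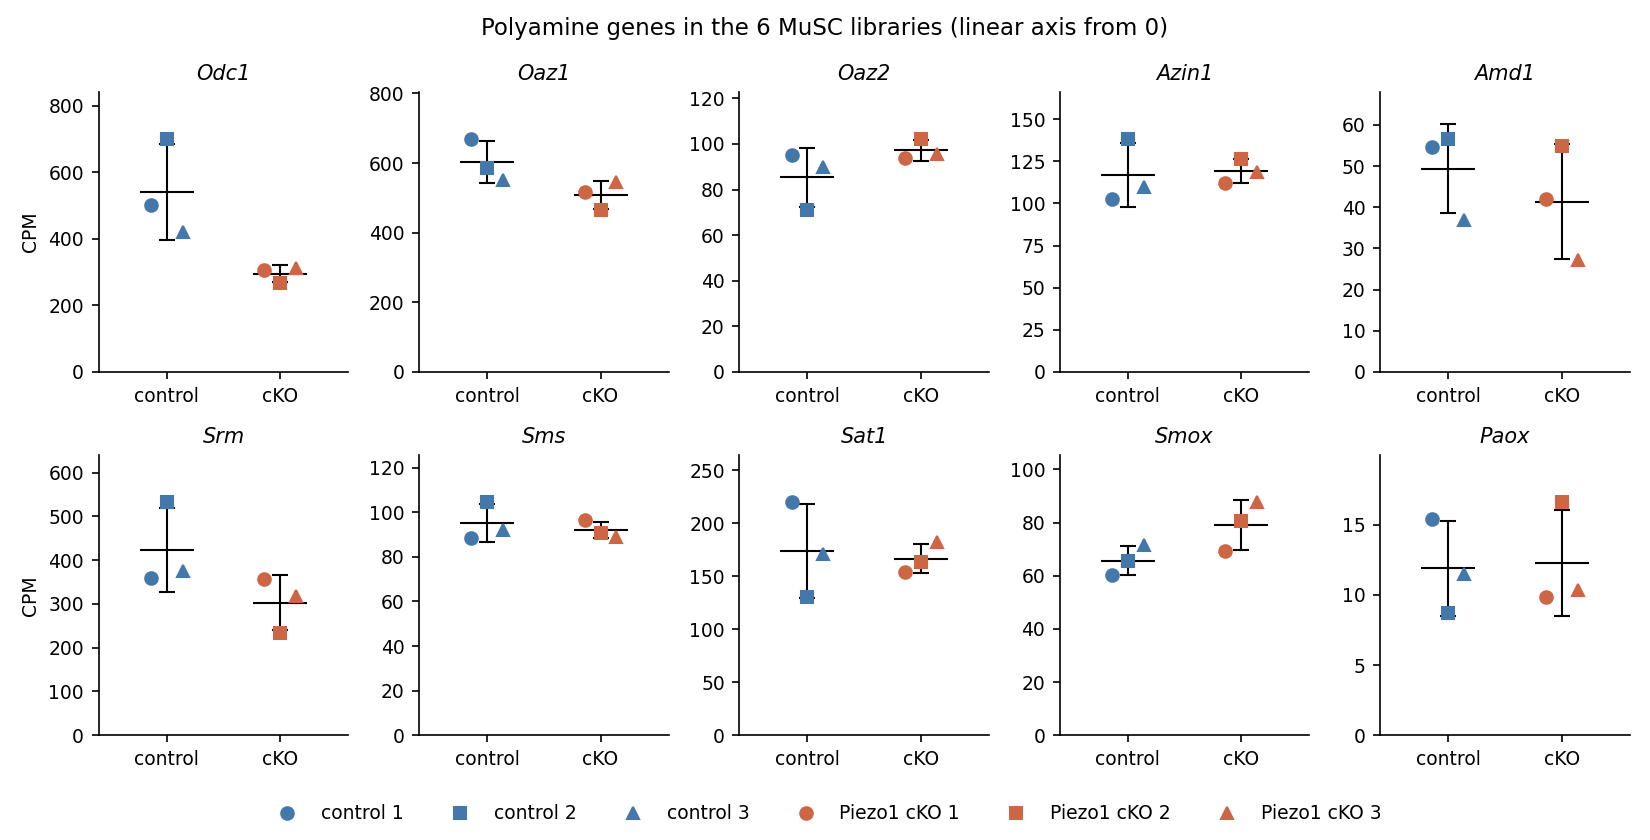
Level of each of the 10 polyamine genes in the 6 libraries, in CPM on linear axes from 0; points are libraries, the bar is the group mean and the whiskers 1 SD (n = 3). *Odc1* lies between 419.5 and 701 CPM in controls and between 267 and 314 CPM in cKO, whereas the libraries of *Azin1*, *Sms* and *Sat1* are intermixed.

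Besides *Odc1*, edgeR called 0 of the 8 tested members lower and 0 higher. At an unadjusted p under 0.05, 1 of the 8 was lower (*Srm*) and 0 were higher, against 5.78% and 6.14% of all genes tested. Limma-voom also called 0 of the 8, and DESeq2 0 of the 7 for which it gave an adjusted p, *Amd1* having none. The fitted value was below 0 for 5 of the 8 and above 0 for 3, and their median log2 fold change was -0.044 beside 0.0021 over all genes tested. Groups did not overlap in 2 of the 8 (*Oaz1* and *Srm*, both lower), beside 8.56% of all genes with every cKO library lower and 7.87% with every cKO library higher.

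Among the other enzymes of synthesis, *Srm* showed the lowest value. *Srm* (chr4:148591503-148594993), which makes spermidine from putrescine, had 360.3, 533 and 375 CPM in controls and 357, 234 and 319 CPM in cKO. Control 2 was again the highest library and cKO 2 the lowest, and the groups touched, with cKO 1 only just below control 1. Scaled by library totals alone, the groups overlapped. The log2 fold change was -0.48 (SE 0.15, 95% interval -0.78 to -0.17, edgeR adjusted p = 0.137). *Srm* was called when the libraries were thinned to the smallest total (-0.51, edgeR adjusted p = 0.0483) and without cKO 1 (-0.61, edgeR adjusted p = 0.00992), and over its 15 alternatives adjusted p ran from 0.00992 to 0.624. Its value was -0.27 without control 2 and -0.33 without cKO 2.

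*Sms* (chrX:157443855-157492287), which turns spermidine into spermine, had 88.3, 105 and 92.2 CPM in controls and 96.3, 90.8 and 89.1 CPM in cKO. The libraries of both groups were intermixed, and the log2 fold change was -0.045 (SE 0.17, edgeR adjusted p = 0.955). The 95% interval from -0.38 to 0.29 bounds the difference that these libraries allow, and its sign turned under other settings.

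*Amd1* (chr10:40287458-40302186), which encodes S-adenosylmethionine decarboxylase, had 54.7, 56.7 and 36.9 CPM in controls and 42.0, 55.0 and 27.1 CPM in cKO. The spread within each group was as wide as the distance between the groups (-0.24, SE 0.24, edgeR adjusted p = 0.757). Its level is uncertain, because 494 of the last 500 bases of its transcript are identical in *Amd2*, a single-exon copy on the same chromosome, and how reads that map to several places were treated is not given in the sources used here. *Amd2* had 25.2, 33.8 and 27.7 CPM in controls and 24.7, 19.2 and 20.7 CPM in cKO (-0.43, SE 0.30, edgeR adjusted p = 0.602), and its groups overlapped by library totals.

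Antizymes are made only when the ribosome skips a base within the coding sequence, a frameshift that polyamines stimulate, so a transcript level does not give the amount of protein. The annotation writes this as a gap of 1 base between 2 exon records, at chr10:80828295 in *Oaz1* and chr9:65686272 in *Oaz2*. The 15 bases on each side of the gap are shown because antizyme synthesis depends on this shift. The sequence is that of the annotated transcripts (GENCODE, GRCm38, plus strand), in which the skipped base is left out, and the last codon before the shift is in capitals.

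*Oaz1* chr10:80828280-80828310: cctcggtggtgcTCCgatgtccctcaccca

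*Oaz2* chr9:65686257-65686287: cctctgtggtgcTCCgatgcccctcaccca

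The sites share 28 of 30 bases. *Oaz1* (chr10:80826656-80829290) had 670.2, 585 and 552 CPM in controls and 517, 464 and 545 CPM in cKO. Each cKO library was below each control library by a narrow margin, 545 against 552 CPM, and by library totals alone the groups overlapped. The log2 fold change was -0.24 (SE 0.14, 95% interval -0.51 to 0.03, edgeR adjusted p = 0.497). A processed pseudogene, *Oaz1-ps*, is identical to *Oaz1* over 214 bases near the end of the transcript and was given 285 counts over the 6 libraries, so part of the *Oaz1* reads may have been split between them.

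*Oaz2* (chr9:65668001-65690300) had 95.3, 70.8 and 89.9 CPM in controls and 93.9, 102 and 95.5 CPM in cKO. Control 2 was the lowest of the 6 libraries and control 1 lay among the cKO libraries (0.20, SE 0.17, edgeR adjusted p = 0.703). By library totals every cKO library was above every control library. *Azin1* (chr15:38487427-38519266), the antizyme inhibitor of most tissues, had 102, 138 and 109 CPM in controls and 112, 127 and 119 CPM in cKO. All 3 cKO libraries lay inside the range of the controls, with a log2 fold change of 0.028 (SE 0.16, 95% interval -0.29 to 0.35, edgeR adjusted p = 0.968).

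*Azin2*, the relative of *Azin1* known from testis and brain, was not among the 10 members and belonged to the wider list described below. It had 11, 12 and 19 counts in controls and 25, 26 and 30 in cKO, or 15.4, 13.1 and 21.9 against 30.9, 33.3 and 38.7 CPM. The groups did not overlap, and the fitted log2 fold change of 1.03 (SE 0.30) did not pass the threshold (edgeR adjusted p = 0.0865). It passed with at least 10 counts required in every library (1.04, edgeR adjusted p = 0.0317), in thinned libraries (1.14, edgeR adjusted p = 0.046) and without control 3 (1.27, edgeR adjusted p = 0.0384), and over its 14 alternatives adjusted p ran from 0.0317 to 0.346.

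The genes of polyamine breakdown gave no call. *Sat1* (chrX:155213132-155216449), which encodes the acetyltransferase that starts the export and breakdown of spermidine and spermine, had 220.1, 131 and 171 CPM in controls and 154, 164 and 182 CPM in cKO. The cKO libraries lay within the range of the controls (-0.043, SE 0.15, 95% interval -0.35 to 0.26, edgeR adjusted p = 0.950). *Smox* (chr2:131491496-131525922), whose product oxidises spermine back to spermidine, had 60.3, 65.4 and 71.5 CPM in controls and 69.2, 80.6 and 87.8 CPM in cKO. Only cKO 1 fell within the range of the controls, and the log2 fold change was 0.27 (SE 0.19, 95% interval -0.11 to 0.64, edgeR adjusted p = 0.612). *Paox* (chr7:140115799-140137224), which encodes the peroxisomal oxidase of acetylated polyamines, had 11, 8 and 10 counts in controls and 8, 13 and 8 in cKO, too few to pass the filter. Its gene overlaps *Echs1* on the opposite strand, and whether the counting used strand is not given in the sources used here.

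Copies of *Odc1* took few counts. Of 6 processed pseudogenes at least 95% identical to part of the end of the *Odc1* transcript (120 to 167 bases), 4 were in the table. They had 24 (*Gm7993*), 5 (*Gm17709*), 3 (*Gm7278*) and 2 (*Gm9115*) counts over all 6 libraries. As for *Amd1*, the treatment of reads that map to several places is not given, so any loss of *Odc1* reads is unknown.

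Because counts of a pair of genes from 1 library share its depth, the ratio of *Odc1* to another member needs no scaling between libraries. It contains *Odc1* and so is a description, too. Counts of *Odc1* per count of *Oaz1*, the enzyme's transcript beside that of its main antizyme, were 0.747, 1.20 and 0.760 in controls and 0.589, 0.576 and 0.576 in cKO. The 3 cKO libraries were nearly equal, and all lay below the controls. Per count of *Azin1* the ratios were 4.89, 5.06 and 3.83 in controls and 2.71, 2.11 and 2.64 in cKO, and per count of *Sms* they were 5.67, 6.70 and 4.55 against 3.17, 2.94 and 3.52. Against *Oaz2*, *Sat1* and *Smox* the groups were also apart, with cKO lower. Against *Srm* they were not, with 1.39, 1.31 and 1.12 in controls and 0.855, 1.14 and 0.984 in cKO. Ratios to *Amd1* and *Paox* are not given here, so *Srm* is the exception only among the members shown.

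**Figure D2:**
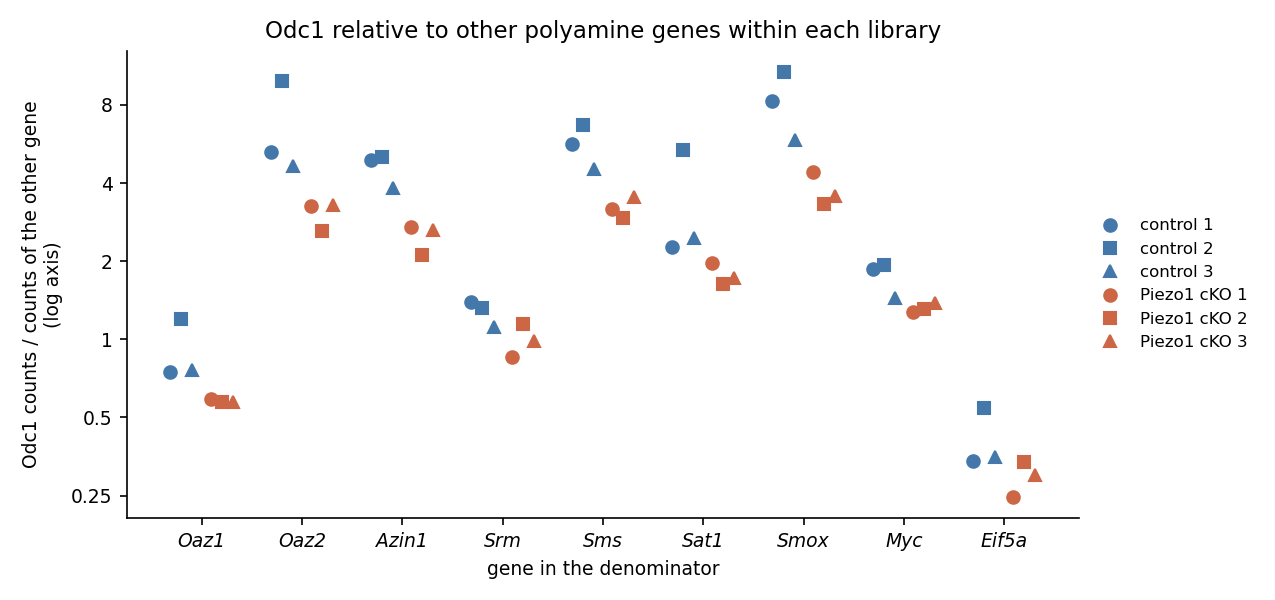
Counts of *Odc1* divided by counts of 7 members and of *Myc* and *Eif5a* in the same library, on a log axis; each point is 1 library, controls to the left of each pair. The cKO points lie below all control points for every denominator but *Srm*, where cKO 2 (1.14) is above control 3 (1.12). For *Eif5a* the margin is narrow, with cKO 2 at 0.337 and control 1 at 0.339.

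A wider list of 48 genes around polyamines, which includes the 10 members, was read for the same comparison. Of these, 43 were in the table and 34 were tested. Besides *Odc1*, edgeR called 0 of 33 lower and 0 higher, and 5 were lower and 3 higher at an unadjusted p under 0.05 (5.78% and 6.14% of all genes tested). Limma-voom also called 0 of the 33, and DESeq2 0 of the 22 for which it gave an adjusted p. Fitted values were below 0 for 17 and above 0 for 16, with a median log2 fold change of -0.024. The groups did not overlap in 6 of the 33 with cKO lower and in 2 with cKO higher (8.56% and 7.87% of all genes tested).

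All 5 tested genes of synthesis (*Odc1*, *Srm*, *Amd2*, *Amd1* and *Sms*) had values below 0, with a median of -0.43. Since *Odc1* was selected for its low value and the sign of *Sms* turned with the scaling, this is a count and not a test of the step. Ornithine and arginine supply had 2 tested genes. *Oat*, which makes or uses ornithine in mitochondria, had a log2 fold change of -0.054 (SE 0.16, edgeR adjusted p = 0.940), and *Ass1*, an enzyme of arginine synthesis, 0.37 (SE 0.30, edgeR adjusted p = 0.673). *Agmat*, *Oaz3*, *Satl1*, *Aoc1* and *Slc22a3* of the list are not analysed here.

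Among 6 tested transport genes, *Slc3a2* had the lowest value. It encodes the heavy chain CD98, which partners amino acid carriers and has been linked to polyamine exchange. Its levels were 338, 388 and 347 CPM in controls and 283, 234 and 276 CPM in cKO, with no overlap under either scaling (-0.43, SE 0.13, edgeR adjusted p = 0.117). *Atp13a3*, a polyamine transporting ATPase, had 70.1, 83.9 and 87.6 CPM in controls and 86.4, 109 and 102 CPM in cKO, with control 3 above cKO 1 (0.29, SE 0.17, edgeR adjusted p = 0.510).

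Spermidine is the donor for hypusine, a modified lysine of the translation factor eIF5A. *Eif5a* had 1478, 1287 and 1196 CPM in controls and 1231, 793 and 1044 CPM in cKO, and the groups overlapped (-0.36, SE 0.15, edgeR adjusted p = 0.286). Its value was -0.14 under cyclic loess and -0.21 without cKO 2. *Dhps* and *Dohh*, which encode the enzymes that build hypusine, had log2 fold changes of -0.024 (SE 0.21) and -0.21 (SE 0.15), and the sign of the former turned with the scaling. *Eif5a2*, the second eIF5A gene, had 6, 9 and 8 counts in controls and 10, 9 and 10 in cKO and was not tested. In the methionine cycle, which supplies the aminopropyl donor, 4 of 8 tested genes had values below 0 and 4 above. *Mtap*, which clears the methylthioadenosine left by SRM and SMS, had 402, 446 and 361 CPM in controls and 338, 293 and 359 CPM in cKO. These groups were apart only by 359 against 361 CPM, and overlapped by library totals (-0.28, SE 0.13, edgeR adjusted p = 0.383). *Mat2a*, the S-adenosylmethionine synthetase of non-hepatic cells, overlapped between groups (-0.25, SE 0.14, edgeR adjusted p = 0.468).

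Of 6 transcription factors of the MYC network, which acts on *Odc1* in many cell types, 4 were tested and 0 called by edgeR or limma-voom, with 1 lower and 2 higher at an unadjusted p under 0.05 (5.78% and 6.14% of all genes tested). DESeq2 gave an adjusted p for 1 of the 4, *Myc*, and did not call it. *Myc* itself had 269, 364 and 292 CPM in controls and 240, 203 and 227 CPM in cKO. Each cKO library lay below each control library, and control 2 and cKO 2 were the extremes, as for *Odc1*. The log2 fold change was -0.46 (SE 0.14, edgeR adjusted p = 0.0917), and *Myc* was called only without cKO 1 (-0.52, edgeR adjusted p = 0.0414; range over its 15 alternatives 0.0414 to 0.495).

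*Mxd4*, which encodes a MAX partner that opposes MYC, had 18.2, 13.1 and 23.1 CPM in controls and 23.5, 40.9 and 42.6 CPM in cKO. Its groups did not overlap, but cKO 1 was at the level of control 3 (0.98, SE 0.30, edgeR adjusted p = 0.107). It was called with at least 10 counts required in every library (0.99, edgeR adjusted p = 0.0478) and without cKO 1 (1.21, edgeR adjusted p = 0.017), in a range from 0.017 to 0.521. *Max*, the shared partner, had a log2 fold change of 0.47 (SE 0.23, edgeR adjusted p = 0.391), with overlapping groups, and *Mycn* and *Mnt* had at most 5 counts in any library.

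**Figure D3:**
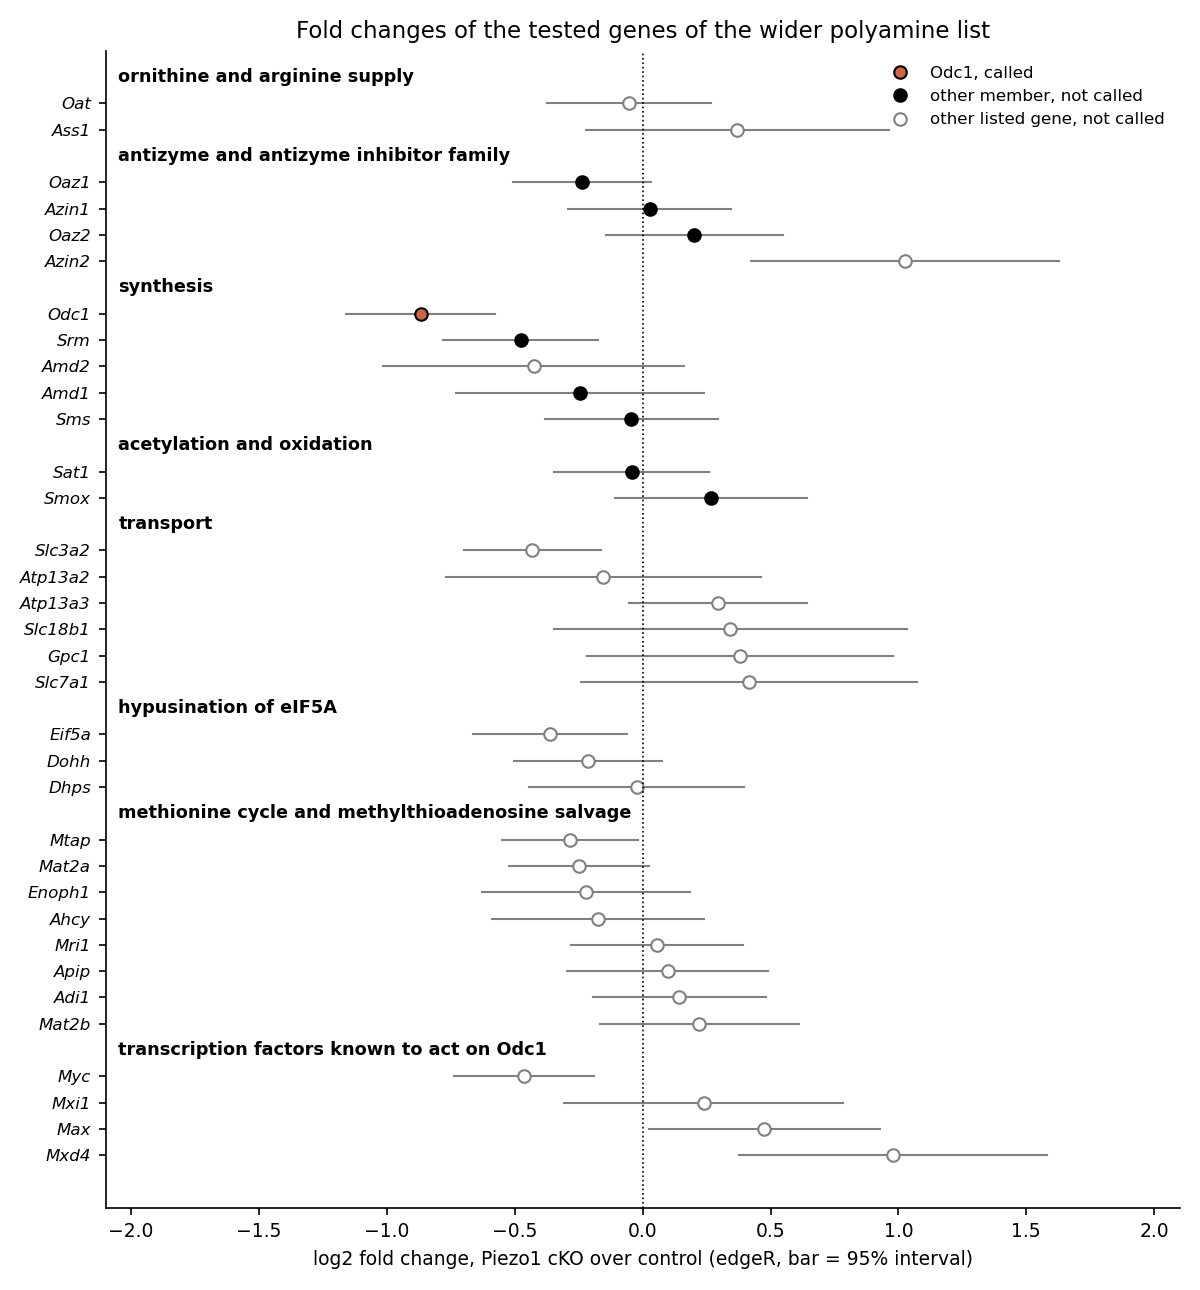
Log2 fold change (cKO over control, edgeR) with its 95% interval for the 34 tested genes of the wider polyamine list, by role; filled points are members, and *Odc1* is in colour. *Odc1*, selected on its value, stands at -0.87, 0 of the other 33 genes are called by edgeR, and *Azin2* at 1.03 and *Mxd4* at 0.98 lie farthest to the other side.

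Among 6810 genes with at least 20 counts per library on average, those whose log2 CPM followed that of *Odc1* most closely over the 6 libraries included *Mtrex* (Pearson r = 0.996), *Supt16* (0.993), *Smc2* (0.991) and *Pabpc4* (0.983). The 6 points share libraries, depth and the difference between the groups, and r is a description here. After each group's mean was subtracted, r was 0.998 for *Mtrex*, an RNA helicase of the nuclear exosome, and 0.974 for *Smc2*, a condensin subunit. *Smc2* had 240, 280.1 and 198 CPM in controls and 149, 137 and 152 CPM in cKO (log2 fold change -0.71, SE 0.14), and *Supt16*, a subunit of the histone chaperone FACT, had 107, 138 and 91.1 CPM in controls and 67.9, 60.1 and 63.2 CPM in cKO (-0.81, SE 0.18). Likeness to *Odc1* includes its difference between the groups, so these differences are given with no test. Within the wider list, *Myc* (0.951), *Slc3a2* (0.941) and *Mtap* (0.940) were closest, *Srm* reached 0.882, and *Azin2* (-0.953) and *Mxd4* (-0.895) ran opposite. With group means subtracted, r was 0.820 for *Myc*, 0.720 for *Slc3a2*, 0.879 for *Mtap* and 0.807 for *Srm*. It was -0.775 for *Azin2* and -0.676 for *Mxd4*.

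Marker genes of cell state were read in the same libraries. In bulk RNA, fewer cells of a type and less RNA per cell cannot be told apart. The summed level of 9 listed genes of differentiating myocytes was 505, 326 and 437 CPM in controls and 680, 1718 and 1002 CPM in cKO. Control 2, the library highest in *Odc1*, was the lowest here, and cKO 2, the lowest in *Odc1*, was the highest. All 7 tested genes of that list had values above 0 (median log2 fold change 2.01), 6 of the 7 without overlap (7.87% of all genes tested). *Actc1*, with 6, 0 and 0 counts in controls and 11, 96 and 21 in cKO, passed the filter on low counts only through the cKO libraries, so these counts support nothing. EdgeR and limma-voom called 0 of the 7 and DESeq2 1 of the 6 for which it gave an adjusted p, and 4 were higher at an unadjusted p under 0.05 (6.14% of all genes). Without the filter on low counts edgeR called *Mymk*, the myoblast fusion factor myomaker, higher (1.96, SE 0.36, edgeR adjusted p = 0.00419), as it did without control 2 (1.53, edgeR adjusted p = 6.60e-05), and over its 14 alternatives adjusted p reached 0.594. The same fit called a pair of list members that the filter had removed, *Mymx* with 2, 0 and 1 counts in controls and 3, 13 and 7 in cKO (edgeR adjusted p = 0.0332) and *Myh3* with 1, 0 and 0 against 9, 35 and 4 (edgeR adjusted p = 1.54e-08). *Myog*, the factor that starts terminal differentiation, had 40, 3 and 45 counts in controls and 63, 203 and 92 in cKO (2.09, SE 0.89, edgeR adjusted p = 0.468). *Tnnt2*, the most abundant gene of the list, overlapped between groups (0.16, SE 0.14).

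The summed level of 12 proliferation genes was 4042, 4242 and 3998 CPM in controls and 3880, 2969 and 3445 CPM in cKO. All 12 had values below 0 (median -0.27), 5 without overlap (8.56% of all genes tested), and edgeR, DESeq2 and limma-voom called 0, with 5 lower at an unadjusted p under 0.05 (5.78% of all genes). Their most abundant gene, *Rrm2*, had a log2 fold change of -0.24 (SE 0.15), which was -0.0050 under cyclic loess and -0.12 without cKO 2. Of 8 tested MuSC and myoblast markers, 4 lay below and 4 above 0. EdgeR and limma-voom called 0 of the 8 and DESeq2 0 of the 6 for which it gave an adjusted p, and 2 were lower and 1 higher at an unadjusted p under 0.05 (5.78% and 6.14% of all genes). The groups did not overlap in 2 with cKO lower and in 1 with cKO higher (8.56% and 7.87% of all genes tested). The latter was *Cdh15* (0.53, SE 0.16, edgeR adjusted p = 0.118), and the former were *Vcam1* (-0.45, SE 0.16, edgeR adjusted p = 0.185) and *Sdc4*. *Sdc4*, a proteoglycan of MuSCs, was called lower by edgeR without the filter (-0.54, SE 0.15, edgeR adjusted p = 0.0327, beside 0.0609 with it), with at least 10 counts in every library (-0.52), without control 1 (-0.62), without control 3 (-0.62) and without cKO 1 (-0.70), in a range of adjusted p from 0.00255 to 0.436. Its value was -0.34 without control 2. The summed level of the 10 MuSC and myoblast markers was 2849, 2603 and 2758 CPM in controls and 2853, 2244 and 2584 CPM in cKO.

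Some genes were listed for fibro-adipogenic progenitors, a cell type of muscle connective tissue, and whether MuSCs gave their counts was not tested. Among them, *Dcn* had 18, 23 and 37 counts in controls and 8, 5 and 3 in cKO and was called lower (-2.17, SE 0.39, edgeR adjusted p = 0.000387). It passed the filter on low counts only through the controls, where it is high, so nothing is drawn from the call. DESeq2 gave it no adjusted p, and it was not tested with at least 10 counts required in every library. The summed level of the 7 genes of that list was 310, 397 and 453 CPM in controls and 272, 326 and 336 CPM in cKO, with *Gsn* the most abundant, *Pdgfra* at 1 to 8 counts and *Pi16* at 0 in all libraries. *Cd34* had 53, 172 and 91 counts in controls and 39, 23 and 35 in cKO (-1.59, SE 0.40, edgeR adjusted p = 0.181). It was called lower in 4 of 15 alternatives, which were DESeq2 (-1.60), no filter on low counts (-1.60, edgeR adjusted p = 1.02e-11), without control 1 (-1.83) and without control 2 (-1.13), and the highest adjusted p was 0.480. *Ly6a*, which encodes the Sca1 antigen that the sort selected against, had 2, 2 and 3 counts in controls and 5, 8 and 9 in cKO and was not tested. Endothelial genes summed to 1.15 to 18.1 CPM and leukocyte genes to 7.01 to 26.2 CPM, with *Tek* and *Cd68* the most abundant, and *Cdh5*, *Ptprc*, *Adgre1*, *Cd3e* and *Cd79a* were not analysed here. Schwann cell genes summed to 2.56 to 8.41 CPM, and those of smooth muscle and pericytes to 30.5 to 43.5 CPM in controls and 53.1 to 81.3 CPM in cKO. *Cspg4* was the most abundant and the only tested gene of the latter list (0.76, SE 0.25, edgeR adjusted p = 0.143). *Rgs5* had 0, 0 and 1 counts in controls and 2, 4 and 6 in cKO. *Pdgfrb*, at 2 to 10 counts, overlapped between groups, and *Myh11* had 0 to 1 counts. The part of differentiation, proliferation or other cells in the level of *Odc1* was not tested.

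**Figure D4:**
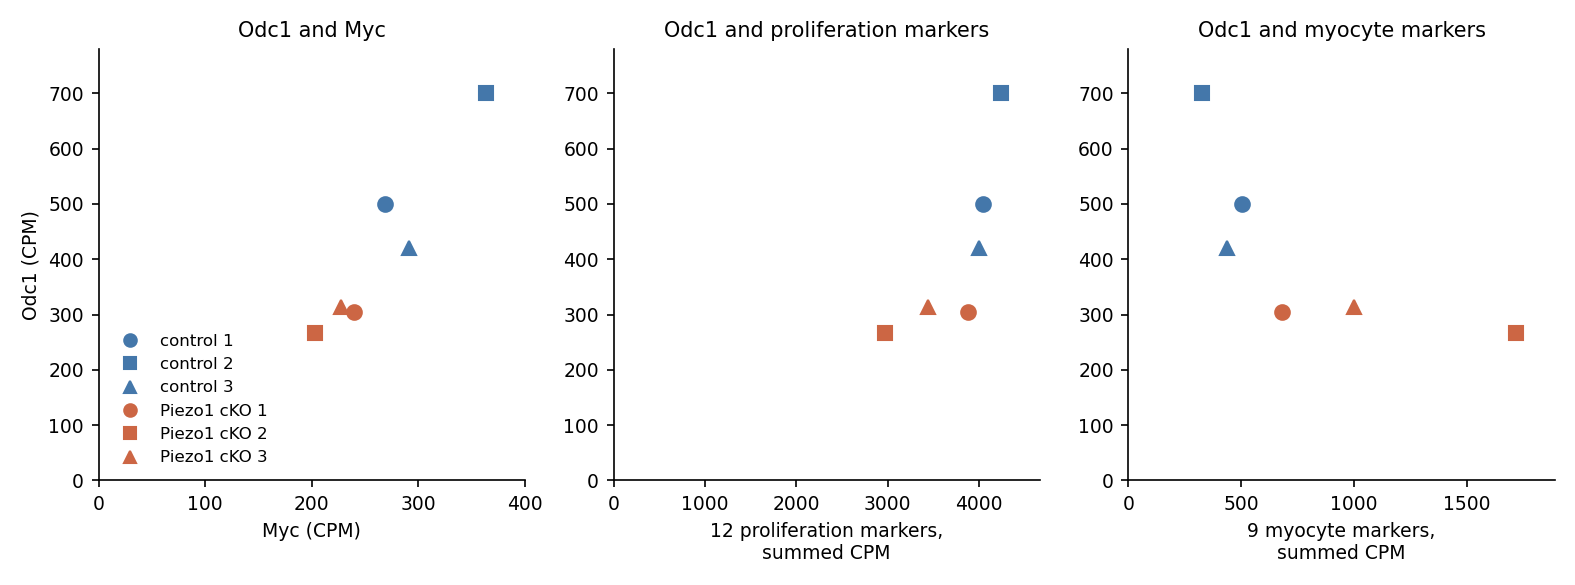
*Odc1* (CPM) against *Myc* (CPM), against 12 proliferation genes (summed CPM) and against 9 myocyte genes (summed CPM), 1 point per library on linear axes from 0. Control 2 is highest in *Odc1*, *Myc* (364) and the proliferation sum (4242) and lowest in the myocyte sum (326), and cKO 2 is the reverse (203, 2969 and 1718).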

How the data were processed

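RNA-seq libraries from 3 control and 3 *Piezo1* cKO MuSC cultures were analysed. From 500 pg of RNA per library, the authors made cDNA, amplified it in 12 PCR cycles, mapped reads to GRCm38 with STAR 2.7.9a, assigned them with featureCounts 2.0.1 and deduplicated UMIs with UMI-tools 1.1.1, by the paper and the submitters' processing notes. The deposited values are raw counts per gene, not normalised. Groups and replicate numbers were taken from sample titles.

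Counts were fitted in R 4.3.3 with edgeR 4.0.16 (TMM, filterByExpr with a minimum count of 10, robust quasi-likelihood fit, Benjamini-Hochberg adjustment over 8551 genes), and the calculation was tested on simulated data. Alternatives used DESeq2 1.42.0, limma 3.58.1 (voom), other scalings and filters, the replicate number as a block, thinning and each library left out. Members and gene lists were chosen with earlier results of these data known. Genes named were the members, the wider list (values for called or non-overlapping genes and up to 3 examples a role), marker genes and the 5 genes most like *Odc1*. Genes at the threshold and near-identical copies were named after their values were seen. Some single genes of these lists are not reported here. Log2 CPM for that used a prior count of 2. Sequences came from RefSeq (GRCm38.p6) and GENCODE M21, and copies from BLAST 2.17.0 over the last 500 transcript bases. No mitochondrially encoded gene was in the table.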

Additional observations from a re-analysis of the deposited data

How the results depend on the processing

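The log2 fold change of *Odc1*, which was selected on it, lay between -1.02 and -0.63 over 15 alternative fits, 6 of which left out a library. The values under cyclic loess (-0.72) and without cKO 2 (-0.81) missed the threshold, and the cause was not tested. Library totals alone moved the median of all tested genes to 0.078, against 0.0021.

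Genes called lower numbered 15 with DESeq2, 10 with cyclic loess, 47 without the filter, 48 at an adjusted p under 0.1, and 2 to 73 with a library left out, against 27. Genes called higher numbered 12, 12, 82, 76 and 4 to 101, against 40. Among the other members, 1 (*Srm*) was called lower in thinned libraries and 0 to 1 with a library left out. In the wider list besides *Odc1*, genes called lower numbered 1 in thinned libraries, 1 at an adjusted p under 0.1 and 0 to 2 with a library left out, and genes called higher 2 with at least 10 counts in every library, 1 in thinned libraries, 1 at an adjusted p under 0.1 and 0 to 1 with a library left out.

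Values near 0 changed sign. *Sms* was 0.030 by library totals, 0.029 thinned and -0.087 to 0.037 with a library left out. *Sat1* was 0.035 by library totals, 0.029 under cyclic loess and -0.211 to 0.157 with a library left out. *Oat* was 0.026 by library totals, 6.64e-05 thinned and -0.216 to 0.043 with a library left out. *Dhps* was 0.0028 with limma-voom, 0.052 by library totals and -0.232 to 0.149 with a library left out. *Azin1* ran from -0.048 to 0.178 and *Paox* from -0.108 to 0.211 with a library left out. Values that kept their sign but moved by over 1.5 times included *Oaz1* (-0.072 under cyclic loess, -0.15 without control 1), *Oaz2* (0.082 without control 2), *Amd1* (-0.51 to -0.022 with a library left out), *Mtap* (-0.17 under cyclic loess), *Mat2a* (-0.11 under cyclic loess), *Ass1* (0.16 to 0.56 with a library left out), *Max* (0.27 without control 2), *Dohh* (-0.13 without control 1) and *Tnnt2* (0.037 without cKO 3).

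Same-numbered libraries had correlations of -0.150, -0.209 and 0.014 over genes, after each group's mean was subtracted. With so few libraries this cannot show whether the numbers pair them, and the labels do not say. With replicate number fitted as a block, 20 genes were called lower and 26 higher, and the log2 fold change of *Odc1* was -0.84.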
